A study of Canis lupus familiaris with 34 samples.

Results

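The genes described here mark or build blood and lymphatic vessels, and were measured in primary canine cutaneous mast cell tumours (MCTs). The set holds 38 genes, chosen by name for their known expression in endothelium, and earlier results of these tumours were known when it was drawn up. On the array, 35 of them were found by the symbol of the platform annotation, each with 1 Transcript cluster (a gene-level probe set), out of 32391 clusters in all. The symbols APLNR, GJA4 and SOX18 were not matched, and these genes were not analysed here. Clusters were tested where at least 30% of the metastasising (M) and/or non-metastasising (NM) MCTs exceeded 1.84, the table median, which left 26 vessel genes among 19246 tested clusters.

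RNA was taken from formalin-fixed, paraffin-embedded biopsies of 34 MCTs, each from a different pet dog, and hybridised to canine gene arrays, which give 1 log2 value per cluster and tumour. M (18 tumours) means a fatal course through proven spread of the tumour, with or without later treatment, and NM (16 tumours) a long survival with no spread found and no treatment after the operation. The dogs were of 11 named breeds or cross-bred, unevenly divided between the groups: Labrador Retrievers gave 7 M and 3 NM MCTs, cross-breeds 3 of each, and Boxers and Golden Retrievers 1 M and 3 NM each. The study also reports that the dogs with M MCTs were older at diagnosis and that males made up a larger share of the NM group. The biopsy blocks of the NM MCTs were older on average, and the part of block age was not tested here. A biopsy of this kind holds mast cells, skin, stroma, vessels and leukocytes together, so fewer endothelial cells and less RNA per endothelial cell cannot be told apart. The spread between tumours is therefore a spread between dogs and between pieces of tissue.

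Endothelial cells line every vessel. They are held together by junction proteins such as VE-cadherin (CDH5) and claudin-5 (CLDN5), carry surface proteins such as PECAM1, CD34 and endoglin (ENG), and store von Willebrand factor (VWF). Vascular endothelial growth factors act on them through receptor kinases with the neuropilins NRP1 and NRP2 as co-receptors, and angiopoietins act through the TEK and TIE1 receptor system, while the Notch ligand DLL4 restrains sprouting. Pericytes wrap the same small vessels, so genes of both cell types are commonly found together in whole tissue. Mast cells store and release factors that act on vessels, among them histamine, proteases and growth factors.

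The arrays had medians from 1.79 to 1.91, and the correlation between 2 arrays over all clusters ran from 0.636 to 0.954. The mean correlation of an array with the others was lowest in NM 3 (0.787) and M 1 (0.793). Of the mast cell list, KIT (the stem cell factor receptor) lay above the table median in 33 of 34 tumours, and the protease CMA1, the transcription factor GATA2 and the amine transporter SLC18A2 in 34 of 34. Other genes of this list did so less often, among them FCER1A and HDC in 21 tumours, RAB27B in 11 and HPGDS in 7. The level filter left out 9 of the 35 vessel genes measured, and 17 of the 26 tested genes also passed a stricter filter set at the 75th percentile.

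The question asked of each vessel gene was whether its level differed between M and NM MCTs. After adjustment over all clusters, 0 of 26 vessel genes reached p under 0.05 in limma (a moderated linear model, with Benjamini-Hochberg adjustment), and the smallest adjusted p among them was 0.9997. Over all 19246 clusters the share called was also 0%, with a smallest adjusted p of 0.558, and 797 clusters had an unadjusted p under 0.05. At that unadjusted threshold 1 of 26 vessel genes was lower in the M MCTs, namely PLXDC1, beside 2.8% of all clusters, and 0 of 26 were higher, beside 1.34% of all clusters. A count of 1 in 26 (3.85%) is close to that background. The mean level was lower in the M MCTs for 18 of the 26 genes (69.2%) and higher for 8, and 56.1% of all clusters were lower. The median difference, M minus NM, was -0.05 on the log2 scale over the vessel genes and -0.02 over all clusters.

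**Figure D1:**
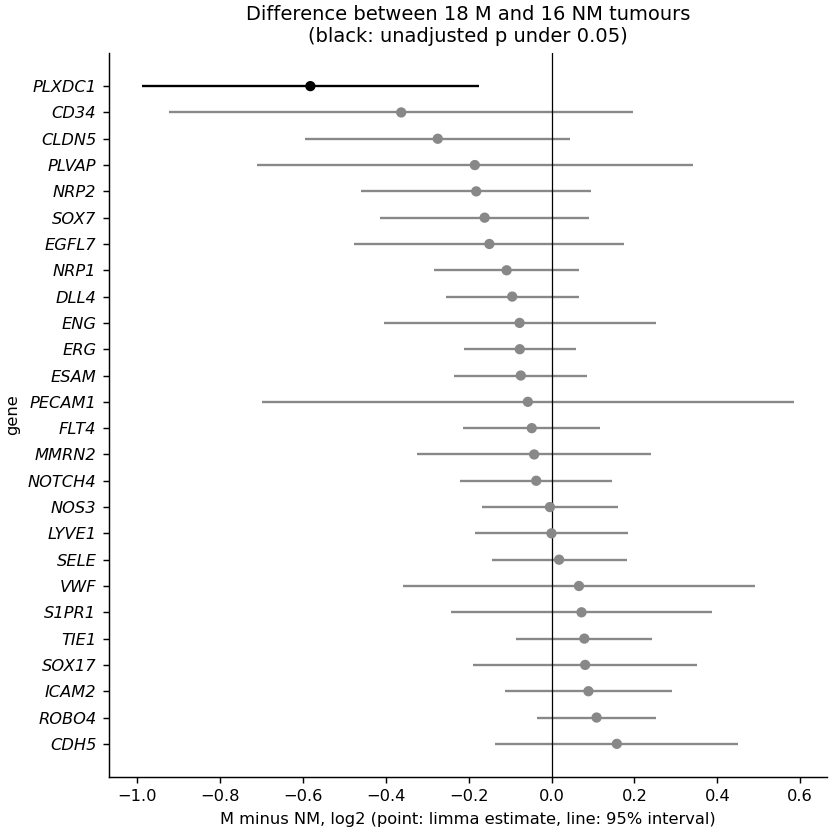
Difference in mean log2 level between the M (n = 18) and NM (n = 16) MCTs for the 26 tested vessel genes; each point is the limma estimate and each line its 95% interval. The interval of PLXDC1 (-0.99 to -0.17) lies below 0, and the intervals of the other 25 genes include 0.

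PLXDC1, also known as tumor endothelial marker 7, encodes a membrane protein first described in the endothelium of human tumours. Its log2 level ran from 1.69 to 2.55 with a median of 2.14 in the M MCTs, and from 1.89 to 4.82 with a median of 2.38 in the NM MCTs. The groups overlapped, but 7 of 16 NM MCTs lay above the highest M MCT. The 4 highest values, all in NM MCTs, were 4.82 in NM 9, 4.07 in NM 1, 3.62 in NM 14 and 3.24 in NM 5. The mean of the M MCTs was 2.14 ± 0.27 (SD, n = 18) and that of the NM MCTs 2.72 ± 0.83 (SD, n = 16). The difference was -0.58 (95% interval -0.99 to -0.17), a level 1.50-fold higher in the NM MCTs, with an unadjusted p of 0.00639 in limma and an adjusted p of 0.9997. With each tumour left out in turn the difference ran from -0.64 to -0.44 and the unadjusted p in limma from 0.00317 to 0.0137.

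Keratinocyte markers moved with PLXDC1. All 15 tested genes of the keratinocyte list, most of which the study had itself singled out in these tumours, had lower M levels with an unadjusted p under 0.05 and a median difference of -1.21 on the log2 scale. DSG1 and DSG3 entered the test only through the NM MCTs, where they were higher, and this count is not independent evidence of the direction. The mean level over that list ran from 1.91 to 5.13 in the M MCTs and from 2.08 to 6.33 in the NM MCTs, and 14 of its 15 genes on the table lay above the table median in 14 or more tumours, with DSG3 above it in 5. The keratinocyte score, the mean z of the list in each tumour, was 1.25 in NM 9, 2.16 in NM 1, 2.23 in NM 14 and 1.02 in NM 5, the tumours with the most PLXDC1. Over the 34 tumours PLXDC1 and this score had r = 0.74 and rho = 0.64. The correlation was 0.47 within the M and 0.74 within the NM MCTs, and 0.62 without the 2 tumours whose scores lay farthest from the median. With the score as a covariate the difference of PLXDC1 was -0.21 with an unadjusted p of 0.228 in limma, and 0 of 26 vessel genes reached p under 0.05. With this covariate the differences of PECAM1, CD34, ENG, EGFL7, SELE and NRP2 changed sign, to 0.29 for PECAM1 and 0.06 for CD34. The score averages genes that were all lower in these M MCTs, most of them singled out by the study in the same tumours. It therefore carries group as well, and this fit cannot separate keratinocyte content from group. The study, which estimated the epidermal share of the biopsy sections, reports that it saw no apparent gross difference in this share between M and NM MCTs. With the mean z of the other 25 vessel genes as a covariate the difference of PLXDC1 was -0.52, with an unadjusted p of 0.00838 in limma.

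**Figure D2:**
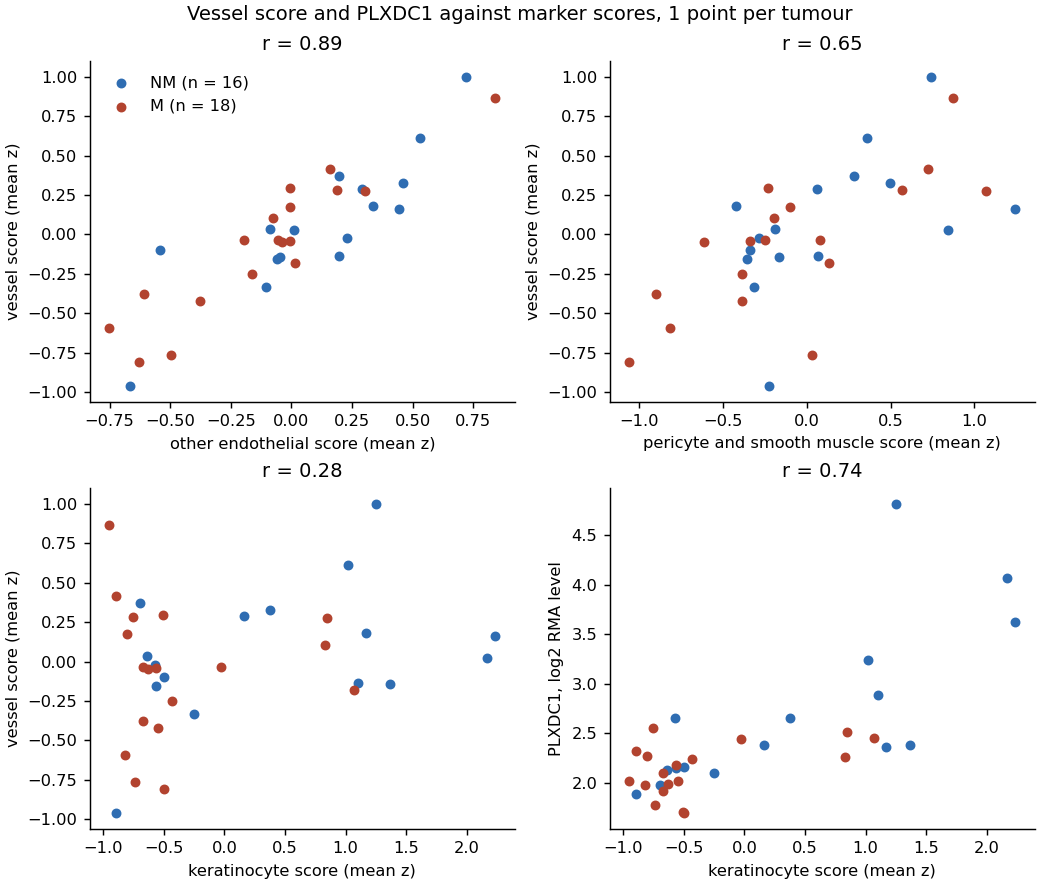
Vessel score (mean z of 26 genes) against 3 marker scores, and log2 level of PLXDC1 against the keratinocyte score, with 1 point per tumour (NM n = 16, M n = 18) and Pearson r above each panel. The vessel score rises with the other endothelial (r = 0.89) and pericyte (r = 0.65) scores and spreads widely over the keratinocyte score (r = 0.28), while the high PLXDC1 values lie at high keratinocyte scores (r = 0.74).

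Of the 10 tested junction and surface genes, 7 were lower and 3 higher in the M MCTs, none at p under 0.05. CLDN5, the main claudin of endothelial tight junctions, had the smallest p of this group. Its log2 level ran from 2.48 to 4.13 with a median of 3.31 in the M MCTs, and from 2.94 to 4.74 with a median of 3.65 in the NM MCTs. The groups overlapped over most of their range, with 2 NM MCTs above every M MCT and 2 M MCTs below every NM MCT. The difference was -0.27 (95% interval -0.59 to 0.04, unadjusted p = 0.0896 in limma). It passed the unadjusted threshold when NM 1, NM 8, M 2 or M 4 was left out (a difference of -0.32 each time, unadjusted p from 0.0452 to 0.0498 in limma). CLDN5 also did so with array weights (unadjusted p = 0.037 in limma) and with breed as a block (unadjusted p = 0.0374 in limma), where cross-breeds formed a block of their own. In each of these fits 2 vessel genes passed.

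CD34, a sialomucin of endothelial and progenitor cells, differed by -0.36 (95% interval -0.92 to 0.20, unadjusted p = 0.196 in limma), with wide SDs, 0.68 among M and 0.96 among NM MCTs. ROBO4, a roundabout receptor that steadies the endothelial barrier, ran from 2.01 to 2.90 with a median of 2.44 in the M MCTs and from 1.94 to 2.62 with a median of 2.40 in the NM MCTs. Only 3 M MCTs exceeded the highest NM MCT, and the difference was 0.11 (95% interval -0.03 to 0.25). ENG, a co-receptor for the transforming growth factor beta family, ran from 1.70 to 3.76 with a median of 2.22 in the M MCTs and from 1.50 to 3.42 with a median of 2.44 in the NM MCTs. The ENG ranges overlapped almost fully, and the difference was -0.08 (95% interval -0.41 to 0.25). PECAM1, a cell adhesion molecule at endothelial contacts, had the widest interval of all 26 genes, -0.70 to 0.58. The other differences in this group ran from -0.19 for PLVAP, the diaphragm protein of fenestrated endothelium, to 0.16 for CDH5, with ESAM, ICAM2 and MMRN2 between them.

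**Figure D3:**
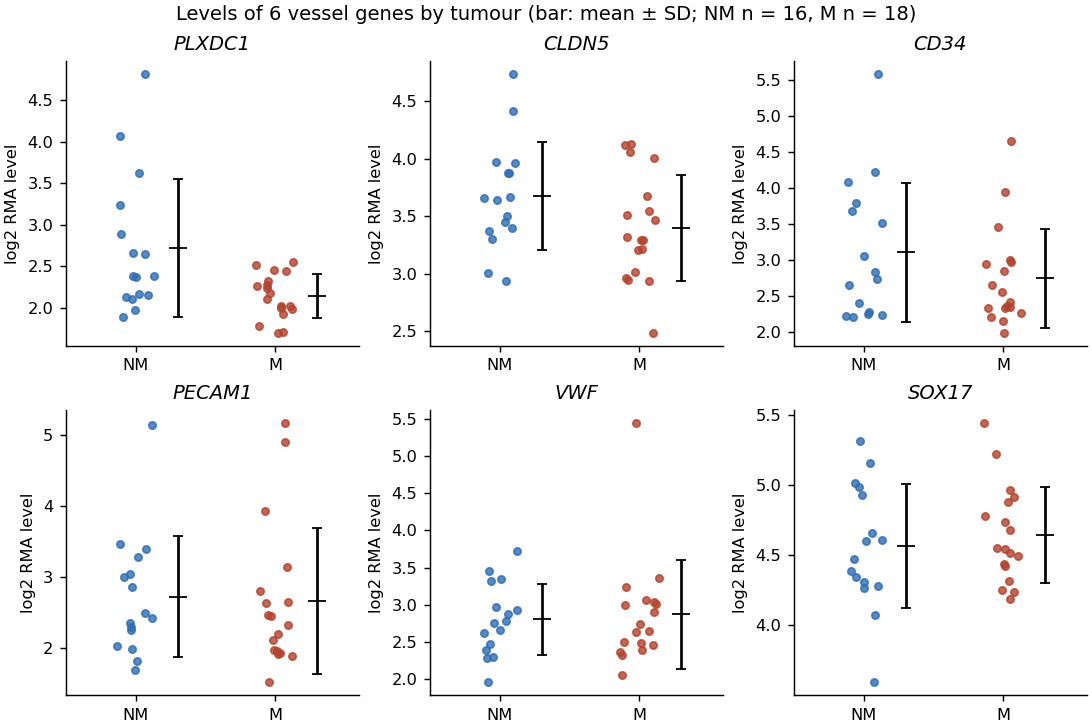
Log2 levels of 6 vessel genes in the NM (n = 16) and M (n = 18) MCTs, with 1 point per tumour and the mean ± SD beside each group; each panel has its own axis and none starts at 0. PLXDC1 is the gene in which 7 NM MCTs lie above every M MCT, and single tumours reach 5.44 for VWF and 5.58 for CD34.

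Among secreted proteins and enzymes, VWF, the platelet adhesion protein stored by endothelium, ran from 2.05 to 5.44 with a median of 2.69 in the M MCTs, and from 1.96 to 3.72 with a median of 2.77 in the NM MCTs. The value of 5.44 belonged to M 2 and stood well above every other tumour. The difference was 0.07 (95% interval -0.36 to 0.49) with M 2 and -0.09 without it. EGFL7, a matrix-bound factor secreted by endothelium, ran from 2.84 to 5.01 with a median of 3.69 in the M MCTs and from 2.84 to 4.63 with a median of 3.95 in the NM MCTs. Its ranges shared almost the same limits, and the difference was -0.15 (95% interval -0.48 to 0.18). For NOS3, the endothelial nitric oxide synthase, the interval was narrow, -0.17 to 0.16.

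The angiopoietin receptor system was read from 1 gene only. TIE1, the orphan receptor that pairs with TEK, ran from 1.89 to 2.85 with a median of 2.27 in the M MCTs and from 1.86 to 2.66 with a median of 2.24 in the NM MCTs. The groups covered nearly the same range, with a difference of 0.08 (95% interval -0.09 to 0.24). The ligands ANGPT1 and ANGPT2 lay above the table median in 0 of 34 tumours and TEK in 2, so they were not tested.

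Of the transcription factors, SOX7 ran from 3.13 to 4.37 with a median of 3.53 in the M MCTs and from 3.00 to 4.35 with a median of 3.74 in the NM MCTs. SOX17, a relative of SOX7 that marks arterial endothelium, ran from 4.19 to 5.44 with a median of 4.55 in the M MCTs and from 3.59 to 5.31 with a median of 4.53 in the NM MCTs. In both genes the groups overlapped over most of their range. The differences were -0.16 (95% interval -0.41 to 0.09) for SOX7 and 0.08 (-0.19 to 0.35) for SOX17, and ERG, an ETS factor of endothelial identity, differed by -0.08 (-0.21 to 0.06).

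Among the arterial and Notch genes, DLL4 ran from 1.88 to 2.78 with a median of 2.15 in the M MCTs and from 1.84 to 2.70 with a median of 2.30 in the NM MCTs. The ranges were alike, although 14 of 18 M MCTs lay below the NM median, and the difference was -0.10 (95% interval -0.26 to 0.07). NOTCH4, a Notch receptor of endothelium, differed by -0.04. Of the lymphatic genes, FLT4, the receptor for VEGFC, ran from 1.70 to 2.71 with a median of 2.30 in the M MCTs and from 2.13 to 2.64 with a median of 2.31 in the NM MCTs. The M MCTs spread more widely on both sides, and the difference was -0.05 (95% interval -0.21 to 0.12). LYVE1, the hyaluronan receptor of lymphatic endothelium, had an interval of -0.19 to 0.18 and lay above the table median in 18 of 34 tumours.

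Of the genes for leukocyte adhesion, SELE, the selectin of activated endothelium, ran from 1.57 to 2.35 with a median of 1.93 in the M MCTs and from 1.49 to 2.30 with a median of 1.89 in the NM MCTs. The groups overlapped almost fully, with a difference of 0.02 (95% interval -0.14 to 0.18). Among receptors, NRP2 ran from 2.56 to 4.25 with a median of 3.21 in the M MCTs and from 2.83 to 4.34 with a median of 3.27 in the NM MCTs. Here 3 M MCTs lay below every NM MCT and 1 NM MCT above every M MCT, and the difference was -0.18 (95% interval -0.46 to 0.10). NRP1 differed by -0.11 (-0.28 to 0.07), and S1PR1, the receptor for sphingosine 1-phosphate, by 0.07 (-0.24 to 0.39).

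The 9 vessel genes below the level filter were EMCN, ANGPT1, ANGPT2, TEK, PROX1, MMRN1, SELP, CALCRL and RAMP2. EMCN, a sialomucin of capillary and venous endothelium, and CALCRL, the receptor of adrenomedullin, lay above the table median in 0 of 34 tumours. PROX1, the defining transcription factor of lymphatic endothelium, did so in 5, and SELP, the selectin of endothelial storage granules, in 2. Their M minus NM differences, from a fit without the filter, ran from -0.06 for TEK to 0.07 for MMRN1. Differences in the amount of these transcripts could not be read at this signal.

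Labrador Retriever was the one named breed with at least 3 tumours in each group, 7 M and 3 NM, beside 11 M and 13 NM MCTs of other dogs. The interaction of this breed with metastasis had an unadjusted p under 0.05 in 0 of 26 vessel genes, beside 1.47% of all clusters, and the smallest adjusted p over all clusters was 0.971 in limma. For PLXDC1 the difference, M minus NM, was -0.18 in Labrador Retrievers and -0.66 in the other dogs, with an interaction of 0.48 (95% interval -0.47 to 1.43, unadjusted p = 0.311). For CD34 these differences were -0.78 and -0.25, with an interaction of -0.53 (-1.86 to 0.80). With 3 NM Labrador Retrievers these intervals are wide.

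The second question was how far the vessel genes rose and fell together from tumour to tumour, as they would if each followed the vessel content of the biopsy. Over the 325 pairs of the 26 genes the median Pearson correlation was 0.139, beside 0.019 over all pairs of tested clusters. The correlation was positive in 236 pairs (72.6%, beside 52.6% of all pairs) and above 0.5 in 32 pairs (9.85%, beside 4.18%). The median was 0.114 in the M MCTs alone and 0.161 in the NM MCTs alone, and 0.119 after the mean correlation of each array with the others was regressed out. It fell to 0.072, beside 0.005 over all pairs, when quantile normalisation was repeated on the tested clusters. With that setting 57.8% of the vessel gene pairs were positive, beside 50.6% of all pairs, and 6.46% were above 0.5, beside 4.34%. The values of these pairs share arrays, normalisation and tissue, and the pairs share genes, so they are a description.

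**Figure D4:**
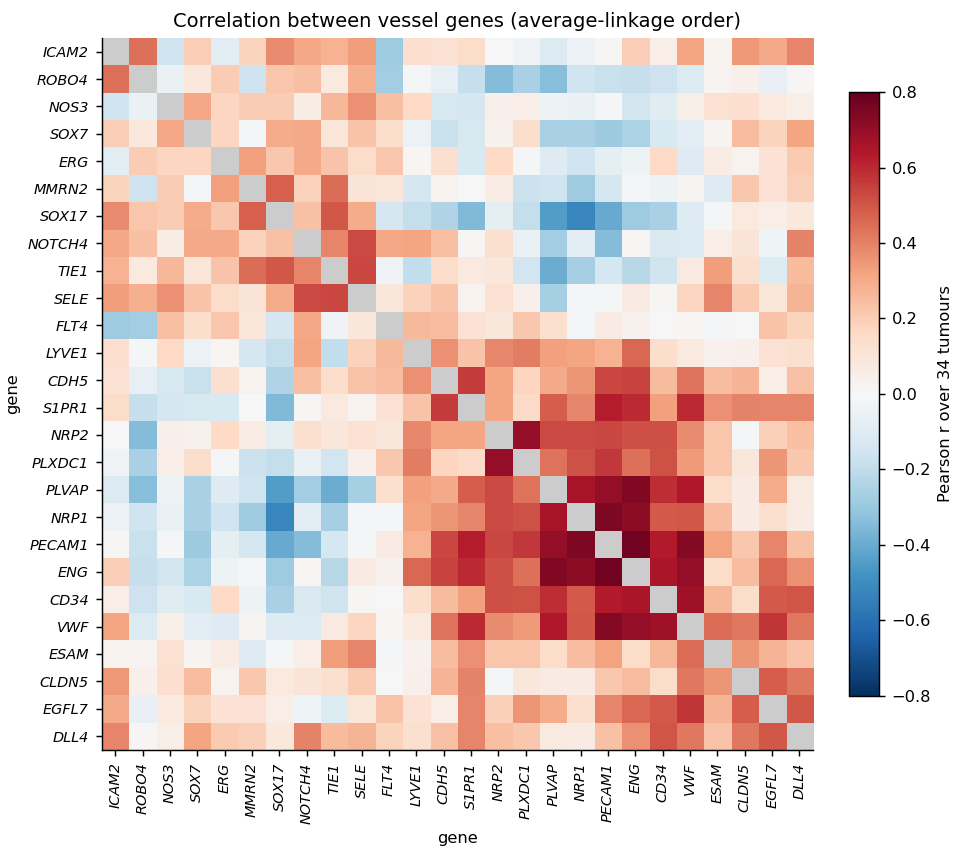
Pearson correlation over 34 tumours between the 26 tested vessel genes, in the order of average-linkage clustering; the diagonal is grey. A block of high values joins PLVAP, NRP1, PECAM1, ENG, CD34 and VWF (PECAM1 with ENG 0.77), and SOX17 is negative against several of them (-0.52 with NRP1).

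The genes that went together most closely were endothelial surface and storage genes. PECAM1 and ENG had r = 0.77 and rho = 0.71, PECAM1 and NRP1 r = 0.75 and rho = 0.66, and ENG and PLVAP r = 0.74 and rho = 0.60. These pairs were correlated in each group, PECAM1 with ENG at 0.75 among M and at 0.81 among NM MCTs. The tumours M 2 and NM 9 carried part of this, since both stood high for these genes: PECAM1 was 5.17 in M 2 and 5.15 in NM 9, and PLVAP 4.92 and 4.61. Without these 2 tumours r was 0.59 for both PECAM1 pairs and 0.53 for ENG and PLVAP, while the median over all 325 pairs was 0.137. The pairs above 0.5 then numbered 22 (6.77%, beside 3.92% of all cluster pairs).

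PLXDC1 was closest to NRP2, with r = 0.70 and rho = 0.65 over all tumours, 0.43 among M and 0.93 among NM MCTs. The 6 lowest correlations each involved SOX17, TIE1 or ROBO4. SOX17 had r = -0.52 with NRP1, -0.45 with PLVAP and -0.41 with PECAM1. On the weakly correlated side, the 3 transcription factors had r from 0.17 to 0.30 between them, below 0.479, the 95th percentile of all cluster pairs. ERG with SOX7 had 0.26 among M and -0.02 among NM MCTs, and ERG with SOX17 had 0.09 and 0.41. NRP1, NRP2 and S1PR1 had r from 0.31 to 0.53, and the 10 junction and surface genes had a median of 0.146 over 45 pairs.

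Each gene was then set against the mean z of the other 25. VWF had the highest correlation (r = 0.68, rho = 0.67), followed by ENG (r = 0.62, rho = 0.57) and DLL4 (r = 0.60, rho = 0.64). Without the 2 tumours farthest from the median of that mean these were 0.62, 0.59 and 0.64. The lowest were SOX7 (r = 0.10), SOX17 (r = -0.02) and ROBO4 (r = -0.08). Values above 0.5 were seen in 7 of the 26 genes, which also include PECAM1, EGFL7, NRP2 and CD34, and CDH5 had 0.48. The share of all clusters above 0.5 with such a mean was not computed. Without the 2 farthest tumours PECAM1 had 0.47, EGFL7 0.39, NRP2 0.41 and CD34 0.47, all below 0.5, while CDH5 had 0.55. EGFL7 followed the others more closely in the NM MCTs (r = 0.85) than in the M MCTs (r = 0.30), a difference that was not tested. Genes with a wide spread over the tumours tended to follow the others more closely (rho = 0.53 across the 26 genes, which are not independent replicates). The 13 genes with the wider spread had a median r of 0.497 with the others, and the 13 with the narrower spread 0.285.

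The mean z of all 26 genes served as a vessel score for each tumour. The M MCTs had a mean of -0.0636 ± 0.43 (SD, n = 18), from -0.811 to 0.865, and the NM MCTs of 0.0716 ± 0.431 (SD, n = 16), from -0.962 to 1.00. The groups overlapped over nearly the whole range, with the score above 0 in 7 of 18 M and 9 of 16 NM MCTs. The highest scores were those of NM 9, from a Golden Retriever, and M 2, from a cross-breed, and the lowest those of NM 8, from a Golden Retriever, and M 10, from a Labrador Retriever. M 2 had the highest level of PECAM1, ENG, PLVAP and VWF, and NM 9 that of NRP1, NRP2 and PLXDC1. NM 8 had the lowest level of 6 of the 26 genes, although its NRP1 and PLVAP lay above their means. The score went with the mean correlation of each array with the others (r = 0.43, rho = 0.36), and the part of array quality in it was not tested beyond the regression above.

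**Figure D5:**
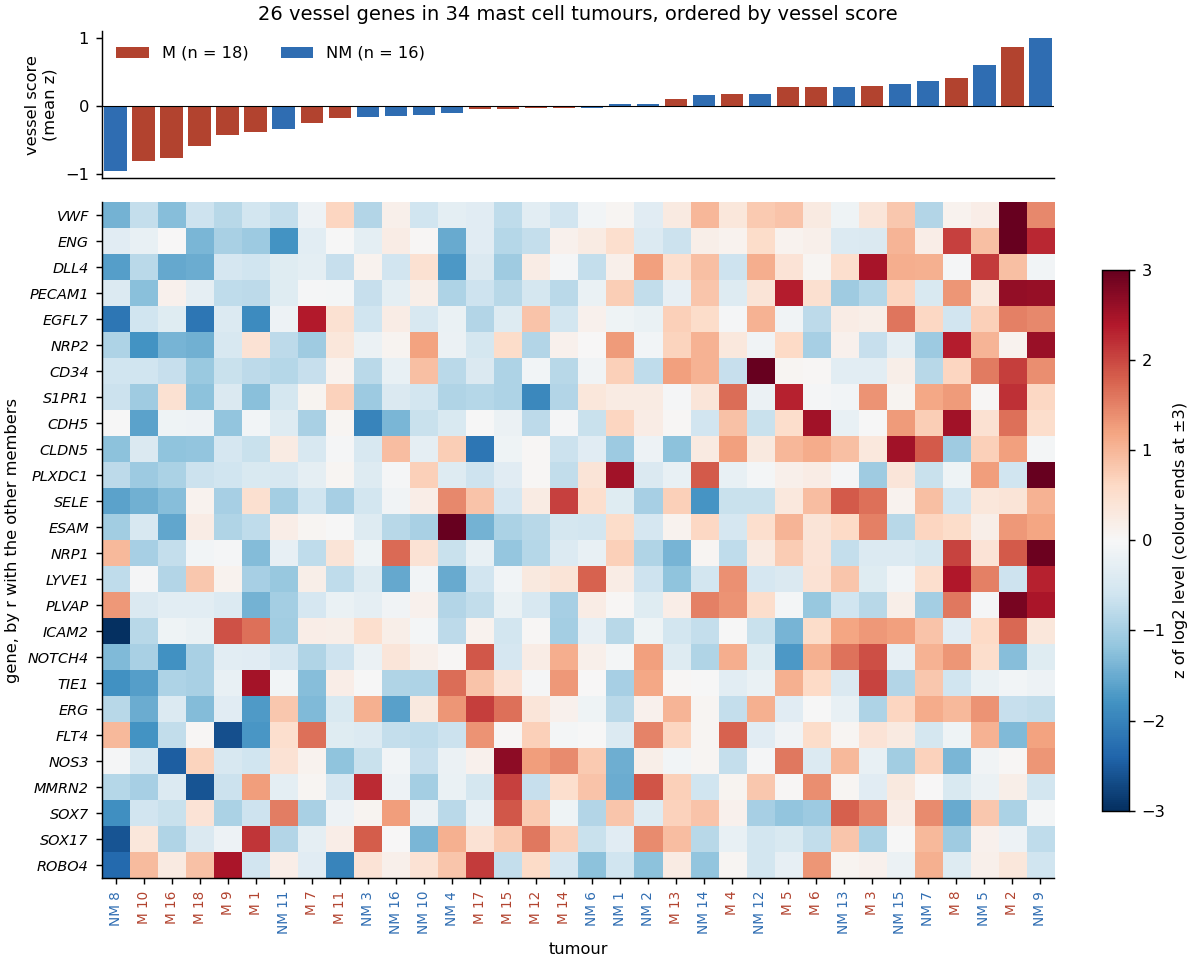
Level of the 26 tested vessel genes in each tumour, as z of the log2 level (colour, ending at ±3), with tumours in order of their vessel score (bars above, red M and blue NM) and genes in order of their correlation with the other 25. M and NM MCTs overlap along the score, with 5 M among the 6 lowest, and the upper rows, from VWF to CDH5, follow it more closely than the lower rows, down to ROBO4.

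Marker lists of other cells showed what went with the vessel score. It followed the mean z of 23 other endothelial genes, none of them in the set, with r = 0.89 and rho = 0.83, and 0.93 within the M and 0.86 within the NM MCTs. For 12 pericyte and smooth muscle genes it was r = 0.65 and rho = 0.66, and for 10 ligands that act on vessels r = 0.69 and rho = 0.63. For 14 fibroblast and matrix genes it was r = 0.57 and rho = 0.51. Without the 2 tumours farthest from the median of each list the values were 0.87, 0.70, 0.62 and 0.44, in that order. The relation was weak for the mast cell list (r = 0.13, rho = 0.10) and for the keratinocyte list (r = 0.28, rho = 0.13). Macrophage genes went with it at r = 0.54 and rho = 0.41, and at 0.39 without the 2 farthest tumours. Platelet genes had r = 0.41 and rho = 0.32, 0.25 within the M and 0.63 within the NM MCTs, and 0.18 without the 2 farthest tumours. The adipocyte (r = 0.24, rho = 0.27), granulocyte (r = 0.16, rho = 0.11) and T, NK and B cell lists (r = 0.15, rho = -0.08) were weakly related to the score. These are 11 lists in all, and MCAM stands in both the endothelial and the pericyte list.

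Single vessel genes differed in the lists they followed. PECAM1 went with the pericyte score at r = 0.78 (rho = 0.69) and ENG with the matrix score at r = 0.71 (rho = 0.52). NRP2, which fibroblasts and macrophages can also express, had r = 0.71 (rho = 0.62) with the matrix score and 0.53 (rho = 0.34) with the macrophage score. Without the 2 tumours farthest from the median of each score, r was 0.49 with the matrix score and 0.17 with the macrophage score. Above 0.5 with the other endothelial score were 11 of the 26 genes, with the matrix score 10, with the pericyte score 9 and with the macrophage score 5. Counts were 3 with the score of ligands that act on vessels, 3 with the keratinocyte score (PLXDC1, CD34 and NRP2) and 1 with the mast cell score (EGFL7). The shares of all clusters above 0.5 with these scores were not computed. CD34, which is also found on stem cells of the hair follicle in mouse skin, had r = 0.58 with the keratinocyte score, and the part of skin content in it was not tested beyond the covariate. With the mast cell score EGFL7 had r = 0.57 (rho = 0.50), 0.71 within the M and 0.48 within the NM MCTs. It was 0.43 without the 2 tumours farthest from the median of that score. CD34 had r = 0.44 and VWF r = 0.39 with the mast cell score, while 11 of the 26 genes were negative with it. ROBO4 was negative with 8 of the 11 lists and reached 0.43 with the list of T, NK and B cells.

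The genes outside the set whose pattern was most like the vessel score were taken from 10445 named genes, by Pearson correlation over 34 tumours. PDGFRB, the receptor that pericytes use to reach endothelium, came first (r = 0.78, rho = 0.76). It was followed by TSC1 (r = 0.76), SKI (r = 0.75), DOCK6 (r = 0.75), FBXW5 (r = 0.75) and PDGFD (r = 0.75), a ligand of PDGFRB. The next were TINAGL1, ACSS1, ECM1, TBC1D22A, ADAMTS5, SCARF1, BCL6, HEG1 and RHOJ, down to r = 0.72. HEG1 belongs to the cardiovascular junction machinery, RHOJ is a small GTPase of endothelium and SCARF1 a scavenger receptor of endothelium. Within the M and the NM MCTs all 15 had r of at least 0.59, and their M minus NM differences ran from -0.28 for ECM1 to 0.06 for RHOJ. The 15 genes were picked by their correlation over these same tumours, so their r within each group is not a separate check.

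The same comparison of M with NM MCTs was made for the lists around the vessel genes. Of 23 other endothelial genes, 19 were lower and 4 higher in the M MCTs, with a median difference of -0.06, and 2 were lower at an unadjusted p under 0.05 in limma. Over all clusters 56.1% were lower, with 2.8% lower and 1.34% higher at that threshold, and the counts of this and the following lists stand beside those shares. These were the water channel AQP1 (-0.55, p = 0.0369) and the adhesion molecule MCAM (-0.24, p = 0.0428), each with an adjusted p of 0.9997, and next came ARHGEF15 (-0.16) and UNC5B (-0.20). Of 10 ligands that act on vessels, 8 were lower and 1 passed. This was PGF (placental growth factor), at 2.27 ± 0.22 (SD, n = 18) in the M and 2.49 ± 0.20 (SD, n = 16) in the NM MCTs. Its difference was -0.22, with an unadjusted p of 0.00659 and an adjusted p of 0.9997 in limma, and SEMA3F, PDGFB and SLIT2 followed with -0.14, -0.25 and -0.12.

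Of 12 pericyte and smooth muscle genes 9 were lower in the M MCTs, with a median of -0.17, and MCAM alone passed, followed by CNN1 (-0.20), MYH11 (-0.27) and TAGLN (-0.58), genes of the contractile apparatus. Of 14 fibroblast and matrix genes 13 were lower, with a median of -0.29, and the matrix glycoprotein FBLN1 passed (-0.63, p = 0.0363 unadjusted in limma). All 8 tested genes of T, NK and B cells were higher in the M MCTs, 3 of them at p under 0.05, namely the T cell receptor subunit CD3D (0.36, p = 0.00346) and the B cell genes MS4A1 (0.38, p = 0.0249) and CD79B (0.48, p = 0.0425). CD3D and MS4A1 lay above the table median in 8 M and 0 NM MCTs, and so entered the test only through the group where they were high. Of 11 mast cell genes 8 were higher and 3 lower, with 0 past the threshold. All 7 adipocyte genes were lower and 0 passed, and neither did any of 5 macrophage, 5 granulocyte or 5 platelet genes. Of the adipocyte genes, CIDEA lay above the table median in 2 M and 5 NM MCTs. It entered the test only through the NM MCTs, where it was higher, so the adipocyte count is not independent evidence of the direction. None of these genes passed after adjustment over all clusters.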

How the data were processed

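Gene expression in 34 canine cutaneous MCTs was measured on whole-transcript arrays. The deposited log2 values were made by the authors, who left out outlier arrays, quantile-normalised the others and summarised them to 1 value per Transcript cluster with Robust Multichip Analysis in Affymetrix Expression Console 1.3, the version that the submitters' processing notes also give. Quantile normalisation forces arrays to 1 distribution, so a change shared by most genes would not be seen, and the number of arrays limits the precision. Detection values of exon probe sets, the study's filter on unique hybridisation, array batches and block ages were not used here. The platform annotation gives 16878 clusters 1 symbol, 289 several and 15224 none.

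M and NM MCTs, grouped by the sample titles, were compared with limma 3.58.1 in R 4.3.3, unpaired and without covariates, with Benjamini-Hochberg adjustment over all tested clusters. The study used an unpaired t-test with p-values adjusted by permutation, over fewer clusters chosen by exon detection. An unpaired t-test was run as an alternative over the 19246 clusters tested here, so counts here and in the study come from unlike sets. Intervals are 95% intervals of limma. The fit was tested on simulated data. Each gene was represented by its cluster of highest mean, and a score is the mean z of a list's tested genes over 34 tumours. The members and gene lists were chosen with earlier results of these data known. Levels by group are given for members with an unadjusted p under 0.05, the member of smallest p in each role, and the 3 members with the highest and the 3 with the lowest correlation with the mean of the others. Outside the members, the 15 genes most correlated with the vessel score are named, and from each list up to 4 genes of smallest p. Alternatives were other level filters, tests, variance models, array weights, normalisation, covariates (keratinocyte score, array correlation, age, sex, vessel score), blocks and left-out arrays. Ages and sexes came from the study's tables of dogs.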

Additional observations from a re-analysis of the deposited data

How the results depend on the processing

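The count of 1 vessel gene past the unadjusted threshold was the same under 11 of 14 alternatives. It became 2 with array weights and with breed as a block (28 tumours in 6 blocks, with the cross-breeds as a block of their own), CLDN5 being added. It became 0 once the keratinocyte score, itself lower on average in the M MCTs, was a covariate. With each tumour left out in turn, a choice made after seeing the data, it was 1 or 2, and the count of clusters past the adjusted threshold was 0 throughout, as it was under all 14 alternatives. The interaction count was 0 under both alternatives tried, also chosen after seeing the data. The median pairwise correlation of 0.139 moved to 0.0719 with quantile normalisation repeated and lay between 0.114 and 0.173 under the other alternatives, and it was 0.137 without the 2 tumours of highest vessel score, chosen after seeing the data. The causes of these changes were not tested.

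The differences of 11 vessel genes changed sign under at least 1 of the 14 alternatives, none of them past the unadjusted threshold. With the keratinocyte score as covariate PECAM1 was at 0.29, CD34 at 0.064, ENG at 0.0067, EGFL7 at 0.0047, NRP2 at 0.000999 and SELE at -0.000676, although CD34, NRP2 and EGFL7 had been among the larger differences. With the vessel score of the other genes PECAM1 was at 0.113, LYVE1 at 0.0302, ENG at 0.017 and NOS3 at 0.0073. With age VWF was at -0.14, SELE at -0.048, MMRN2 at 0.026 and SOX17 at -0.0096. With sex NOS3 was at 0.023 and LYVE1 at 0.025, and with quantile normalisation repeated 0.0033 and 0.011. LYVE1 was at 0.012 with array correlation and at 0.0083 without the 2 arrays, and VWF at -0.0034 with array weights. With single tumours left out, signs changed within -0.205 to 0.105 for PECAM1, -0.092 to 0.018 for MMRN2, -0.085 to 0.127 for VWF, -0.0399 to 0.0288 for NOS3, -0.037 to 0.0396 for LYVE1 and -0.0086 to 0.046 for SELE. The replicate numbers shared by 16 M and 16 NM MCTs do not pair them: deviations of same-numbered tumours correlated from -0.612 to 0.436, above 0.1 in 3 of 16. With the replicate block 1 vessel gene and 548 clusters, against 797, had an unadjusted p under 0.05, MMRN2 was at 0.034 and PLXDC1 differed by -0.56 (p = 0.0188 in limma). Every vessel gene on the table had a single cluster, so no other cluster could be tried. Low signal limits the reading of the 9 vessel genes below the level filter.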
